A study of Drosophila melanogaster with 6 samples.

Results

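The genes described here are 7 CD36 family genes of Drosophila melanogaster, Snmp1, Snmp2, ninaD, santa-maria, emp, pes and crq. They were taken by gene symbol from the 17476 genes counted in RNA from adult wings. The choice used no cutoff on measured values, but earlier results of these data were known when it was made. Wings of 3-day-old flies were hand-dissected from 2 genotypes, w1118 Canton-S (control) and Poxn 70, an allele of the Pox neuro gene in flies whose wings lack chemosensory sensilla. Each genotype was represented by 3 independent collections, given as 8000 wings from 4000 flies apiece, with 1 library of polyadenylated RNA from each. The wings per library in the labels do not add up to the total that the study gives, so that number is uncertain. The whole wing was sequenced, so every level is an average over epithelium, veins, nerves, glia and sensilla, and fewer cells of a type and less RNA per cell cannot be told apart. According to the study, the Poxn wing margin carries enlarged sensilla, possibly mechanosensory, in place of the missing ones.

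CD36 proteins cross the membrane at both ends and hold a large extracellular domain that binds lipids, lipoproteins, carotenoids, bacteria or the surface of dying cells. In insects one branch of the family, the sensory neuron membrane proteins (SNMPs), works in sensilla. Snmp1 is a co-receptor for the male pheromone cis-vaccenyl acetate in trichoid sensilla of the antenna, and Snmp2 is known chiefly from the support cells that surround sensory neurons. The remaining members act outside olfaction: ninaD and santa-maria take up carotenoids for the visual chromophore, emp is an epithelial membrane protein, and pes and crq are receptors for bacteria and for apoptotic cells.

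The 7 genes lie at separate places in the release 6 assembly, and their longest annotated coding sequences specify between 491 residues (crq) and 563 residues (santa-maria). Snmp1 (FBgn0260004) lies on 3R, 21165167 to 21168205, and Snmp2 (FBgn0035815) on 3L, 7733250 to 7743041, both on the reverse strand. Each sits within the span of a longer gene on the opposite strand, SNF4Agamma and CG32373, with 0 nt of shared exon. The others are ninaD (FBgn0002939; 2L, 18081628 to 18083608), santa-maria (FBgn0025697; 2L, 7445355 to 7451244), pes (FBgn0031969; 2L, 7986786 to 7994184), crq (FBgn0015924; 2L, 448254 to 453024) and emp (FBgn0010435; 2R, 24976456 to 24986070). Exons of santa-maria share 528 nt with the opposite-strand gene CG5973 and exons of crq share 448 nt with ex, and whether the counting used strand is not given in the sources used here.

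The libraries labelled control held 10074860 to 14269486 counts on genes and those labelled Poxn 14021115 to 16182811. Values given for the replicates of a genotype follow the order of their numbers, 1 to 3. Poxn itself was counted 0, 6 and 3 times in the control replicates and 92, 86 and 85 times in the Poxn replicates, so its transcript was more abundant under the Poxn label, and directions are given by label. The libraries labelled control differed more among themselves, with a biological coefficient of variation of 65.2% against 20.2%, and short genes, with no transcript reaching 600 nt, took 16.6% to 30.6% of their counts, compared with 5.68% to 7.03%. The scaling of libraries shifted fold changes as a whole: the median log2 fold change over the 8973 tested genes was -0.0072 with TMM factors, the normalization of the main test, and -1.39 with total counts. Levels below are CPM, counts per 1000000 of the TMM-scaled effective library size. Markers of the wing (vg, nub, ap and sd) summed to 89.0 to 140 CPM in the libraries labelled control and to 109 to 120 CPM in the others. Midgut markers summed to 122 CPM in Poxn replicate 2 and to at most 1.52 CPM elsewhere, and male accessory gland markers to 149 CPM in Poxn replicate 3 and to at most 3.14 CPM elsewhere. Flight muscle markers summed to 160 CPM in Poxn replicate 2 and to 37.7 to 78.4 CPM elsewhere. Among them Act88F had 85.9 CPM in that library and at most 20.8 CPM elsewhere.

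Of the 7 members, only Snmp2 was called, as enriched in the libraries labelled control. A gene was called when it differed by more than 4-fold with an adjusted p under 0.01 in edgeR's quasi-likelihood test with Benjamini-Hochberg adjustment. All 7 members passed the filter on low counts, 1 of them was called higher in the libraries labelled control, where 0.602% of all tested genes were, and 0 were called higher in those labelled Poxn, where 0.0557% were. At an unadjusted p under 0.05, Snmp2 was higher in the libraries labelled control (17.8% of tested genes) and 3 members, Snmp1, pes and crq, were higher in those labelled Poxn (14.1%). DESeq2 gave the same 1 call, Snmp2, beside 7.56% of tested genes, and 0 in the Poxn direction, beside 0.763%. The median log2 fold change of the members, positive where control was higher, was -1.07 with TMM factors and -2.63 with total counts.

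**Figure D1:**
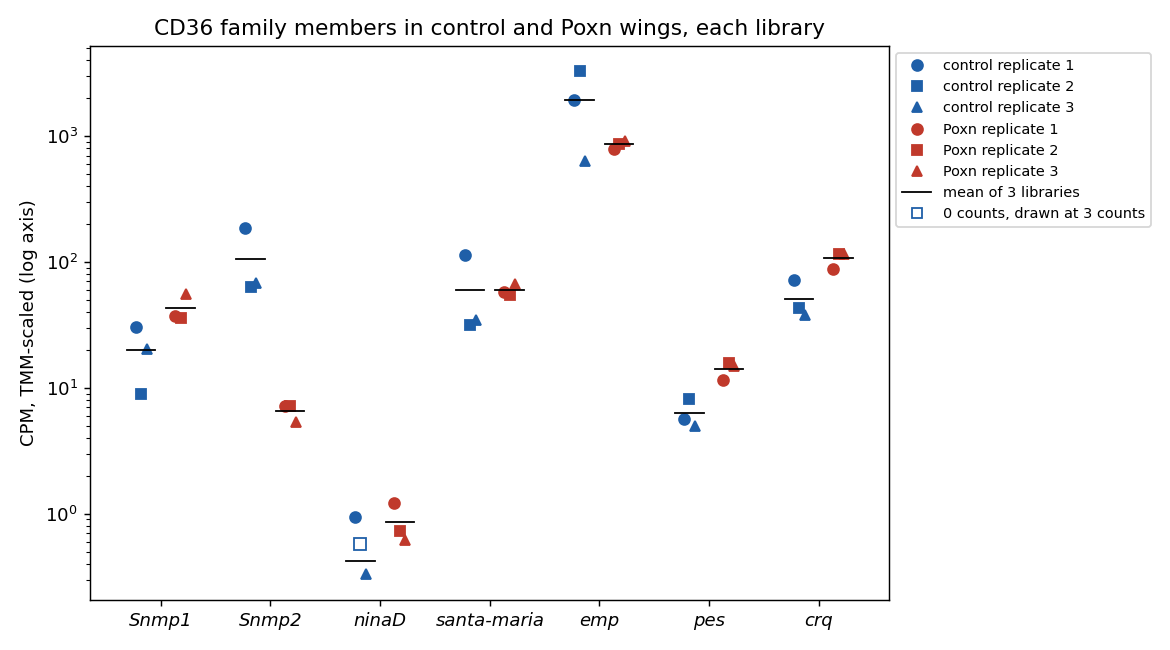
Level of each of the 7 members in each library, as TMM-scaled CPM on a log axis, with points for replicates and bars for the mean of 3 libraries. Snmp2 sits between 63.0 and 186 CPM in the libraries labelled control and between 5.33 and 7.17 CPM in those labelled Poxn, while Snmp1, pes and crq lie higher in the libraries labelled Poxn.

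Snmp2 was counted 590, 331 and 1251 times in the control replicates and 199, 215 and 139 times in the Poxn replicates. On the CPM scale these were 186, 63.0 and 68.6 against 7.17, 7.15 and 5.33. The lowest library labelled control thus lay far above the highest labelled Poxn, and the groups overlapped neither with TMM factors (control above in 17.9% of tested genes) nor with total counts (2.72%). Mean levels were 106 ± 69.2 CPM and 6.55 ± 1.06 CPM (SD, n = 3 each). The log2 fold change of Snmp2 was 4.01 with a standard error (SE) of 0.53 (adjusted p = 0.00817, edgeR's quasi-likelihood test), or 16.1-fold. The call was lost under 2 scalings and when a Poxn library was left out: with total counts the log2 fold change was 2.21 (adjusted p = 0.0961, with 0.702% of genes called), with offsets for transcript length it was 4.79 (adjusted p = 0.0107, 0.502% called), and without Poxn replicate 1, 2 or 3 it was 4.07, 4.06 and 3.87 with adjusted p = 0.0782, 0.0751 and 0.0729, all from edgeR. In the fits that left out a Poxn replicate, 3, 7 and 7 genes of all those tested were called higher in the libraries labelled control, compared with 54 in the fit to all libraries. Leaving out control replicate 1, 2 or 3 kept the call, at log2 fold changes of 3.32, 4.26 and 4.29 (adjusted p = 0.00462, 0.00371 and 0.00779, edgeR). Relative to the median of all tested genes in the same fit, Snmp2 was higher in the libraries labelled control by 3.61 on the log2 scale with total counts and by 4.71 with length offsets.

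Snmp1, the pheromone co-receptor, was not called and lay on the other side. It was counted 96, 47 and 372 times in the control replicates and 1028, 1079 and 1462 times in the Poxn replicates, or 30.2, 8.95 and 20.4 CPM against 37.0, 35.9 and 56.0 CPM. Every Poxn replicate exceeded every control replicate, by a narrow margin over control replicate 1, and 22.5% of tested genes were separated in this direction. The log2 fold change was -1.12 (SE 0.46, adjusted p = 0.138, edgeR) and was -0.40 with offsets for transcript length (adjusted p = 0.655). The highest library, Poxn replicate 3, was the one with the accessory gland transcripts, and without it the log2 fold change was -0.89 (adjusted p = 0.393, edgeR). Of 4 neuronal markers 0 were called and none was at 0, and they did not move together. nSyb had 30.6 ± 8.96 CPM in the control replicates against 79.8 ± 15.9 CPM in the Poxn replicates, brp 14.8 ± 10.8 against 4.61 ± 1.21 CPM, elav 15.7 ± 1.20 against 12.2 ± 1.27 CPM and Syt1 24.8 ± 7.58 against 23.8 ± 2.13 CPM (SD, n = 3 each), and their summed level was 78.5 to 90.8 CPM against 108 to 132 CPM. The part of either set of transcripts in the Snmp1 level was not tested.

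The ratio of the SNMP genes within a library needs no scaling factor. Per kilobase of exon, Snmp2 had 4.94, 5.66 and 2.70 times the counts of Snmp1 in the control replicates and 0.156, 0.160 and 0.0764 times in the Poxn replicates. Snmp2 was therefore the more abundant of the pair in every library labelled control and the less abundant in every library labelled Poxn. The mean log2 ratio was 2.08 ± 0.57 against -3.01 ± 0.60 (SD, n = 3 each), a 34.1-fold difference (exact permutation test, two-sided, p = 0.1, the smallest that 3 libraries against 3 can give). Ratios of Snmp2 to the other members differed in the same direction, by 7.69-fold to emp, 17.0-fold to santa-maria, 30.8-fold to crq and 32.6-fold to pes, and in none of these did the groups overlap (exact permutation p = 0.1 for each of the 5 ratios tested, before and after Benjamini-Hochberg adjustment). All 5 ratios share Snmp2 as numerator and were chosen after seeing the data, so their common direction is not a set of separate results. No ratio to ninaD could be formed in control replicate 2, where ninaD had 0 counts.

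**Figure D2:**
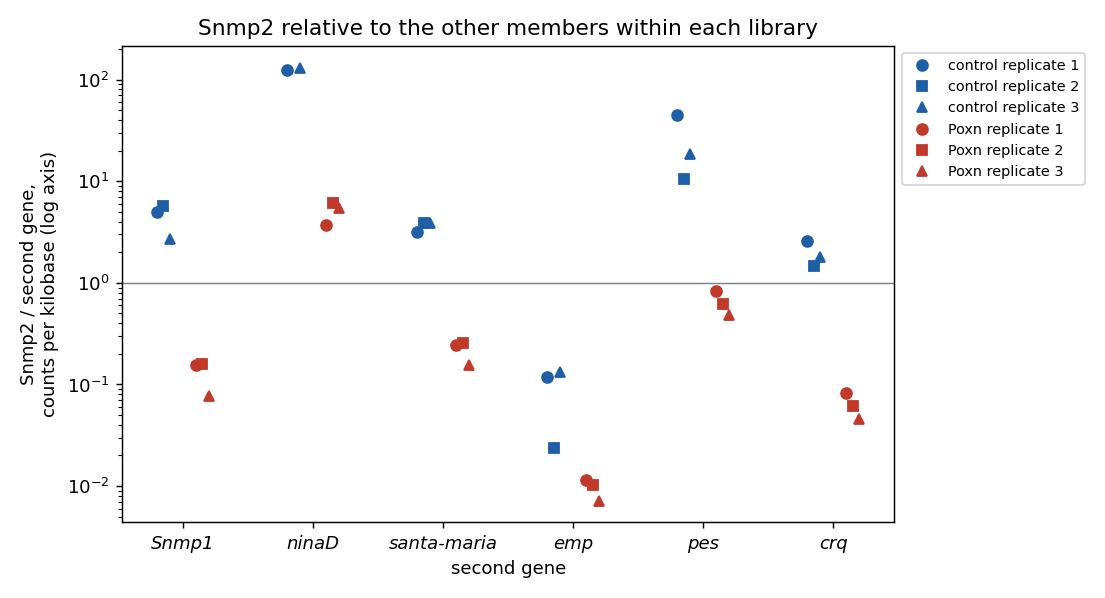
Counts per kilobase of Snmp2 divided by those of each other member within the same library, on a log axis with a line at 1, and 1 point per library. The ratio to Snmp1 lies between 2.70 and 5.66 in the libraries labelled control and between 0.0764 and 0.160 in those labelled Poxn, and the points of the 2 labels are apart for every second gene.

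Genes of sensillum support cells were examined beside Snmp2. The list held nompA, which encodes a protein of the extracellular cap linking sensory dendrites to the cuticle, pros, a transcription factor of sheath cells, sv, a Pax factor of the shaft lineage, and Su(H), which acts in socket cells. All 4 were tested and none was at 0 in every library, and their summed level was 100 to 172 CPM in the libraries labelled control and 41.3 to 43.1 CPM in those labelled Poxn. nompA was counted 33, 140 and 379 times against 10, 3 and 5 times, a log2 fold change of 6.44 (adjusted p = 0.00172, edgeR), and pros was counted 311, 575 and 972 times against 316, 219 and 222 times, a log2 fold change of 3.26 (adjusted p = 0.00682, edgeR). Neither sv (3.18 ± 2.05 against 4.47 ± 0.747 CPM) nor Su(H) (31.4 ± 8.92 against 28.7 ± 2.54 CPM, SD, n = 3 each) was called. The call for pros was lost with total counts (1.59, adjusted p = 0.185, edgeR), without control replicate 1 (3.16, adjusted p = 0.0251), with the replicate block and length offsets together (2.49, adjusted p = 0.0152), and, as for nompA, without Poxn replicate 1, 2 or 3. In those 3 fits the log2 fold changes were 6.99, 6.08 and 6.35 for nompA and 3.45, 3.11 and 3.20 for pros. Whether support cells had a part in the Snmp2 difference was not tested.

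Among the listed partners of Snmp1 in pheromone detection, the odorant receptors and Orco were close to absent from the wing, while lush had more counts. Of the 6 genes listed, Or88a had 0 counts in all libraries and Or67d, the receptor for cis-vaccenyl acetate, had at most 1 count. Orco, the co-receptor of odorant receptors, had at most 4 counts and Or65a at most 5. Only lush, the odorant binding protein for this pheromone, was tested, with 0, 1 and 39 counts in the control replicates and 56, 82 and 57 in the Poxn replicates, and it was not called. DESeq2 called 1 of the 6, Or47b, with 6, 1 and 8 counts in the control replicates and 0 in each Poxn replicate, beside 7.56% of tested genes in this direction. Obp83b, a marker of the antenna, had 0 counts throughout.

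**Figure D3:**
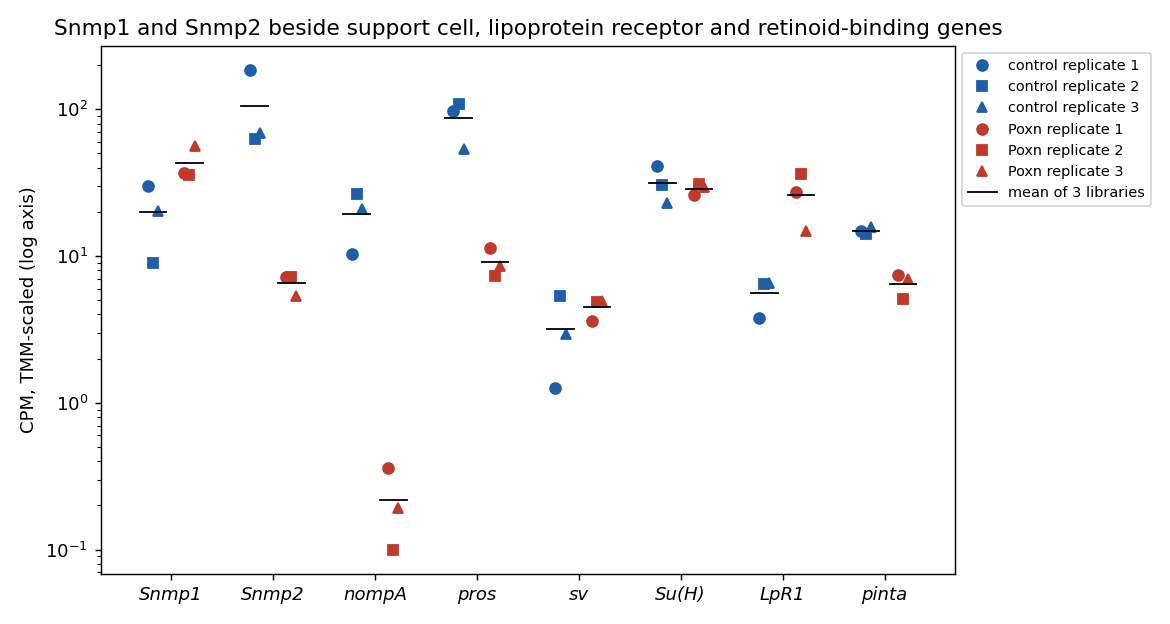
Levels of Snmp1 and Snmp2 beside 4 support cell genes (nompA, pros, sv and Su(H)), the lipoprotein receptor gene LpR1 and the retinoid-binding gene pinta, as TMM-scaled CPM on a log axis, with points for libraries and bars for means of 3. Snmp2, nompA, pros and pinta are higher in every library labelled control (as are 17.9% of tested genes), and sv and Su(H) overlap. Snmp1 and LpR1 are higher in every library labelled Poxn (as are 22.5%). The other genes of the lists that hold LpR1 and pinta are not drawn.

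The carotenoid receptor genes differed from each other in level. ninaD, which takes up dietary carotenoids in the gut, was counted 3, 0 and 6 times in the control replicates and 34, 22 and 16 times in the Poxn replicates, at most 1.23 CPM in any library. A count of 0 in control replicate 2 allows up to 3 counts, or 0.571 CPM, by counting error alone. Its log2 fold change was -1.27 (SE 0.80, adjusted p = 0.313, edgeR), and the groups overlapped.

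santa-maria, which moves carotenoids into neurons and glia of the head, was counted 362, 166 and 627 times against 1598, 1637 and 1735 times. These were 114, 31.6 and 34.4 CPM against 57.6, 54.4 and 66.5 CPM, so that control replicate 1 lay above the libraries labelled Poxn and the other two below them. The log2 fold change was 0.0035 (SE 0.52, adjusted p = 0.996, edgeR), but -1.88 with total counts (adjusted p = 0.110) and -0.86 without control replicate 1 (adjusted p = 0.104). Glial markers (repo, Eaat1, nrv2 and gcm) summed to 93.8 to 464 CPM in the control replicates and to 277 to 337 CPM in the Poxn replicates, which overlapped. Most of the sum was nrv2, which overlapped, as did Eaat1, and gcm had at most 6 counts. repo had 7.47 ± 0.802 against 10.8 ± 0.815 CPM (SD, n = 3 each) and did not overlap (Poxn above in 22.5% of tested genes). Of the glial markers 3 were tested and 0 were called by edgeR. The overlapping gene CG5973 had 57861 to 128650 counts per library, many times those of santa-maria, and how many of the counts of santa-maria fell in the shared stretch was not tested.

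Other genes of the pathway from carotenoid to visual pigment were examined beside these receptors. ninaB, the carotenoid oxygenase, had at most 6 counts and ninaE, the major opsin, at most 2 counts in any library. Of the 6 genes listed, 2 were tested and 0 called by edgeR, both with an unadjusted p under 0.05 in the control direction (17.8% of tested genes). DESeq2 called Pdh and rdhB, also in the control direction (7.56% of tested genes). pinta, which encodes a retinoid-binding protein, had 14.9 ± 0.832 CPM against 6.48 ± 1.20 CPM (log2 fold change 1.20, adjusted p = 0.0530, edgeR), and Pdh, a retinol dehydrogenase, had 7.66 ± 8.65 CPM against 0.730 ± 0.207 CPM (3.32, adjusted p = 0.0616). The Pdh level was uneven among the control replicates, at 17.3, 0.571 and 5.10 CPM, and without control replicate 1 the log2 fold change was 2.04 (adjusted p = 0.144, edgeR). The direction for pinta turned with total counts, to -0.19, in a fit where the median of all tested genes was -1.39. Of 7 photoreceptor markers, 2 were tested and 0 called by edgeR. inaD had 40.2 ± 27.9 CPM against 3.23 ± 0.445 CPM (log2 fold change 3.62, adjusted p = 0.0249, edgeR). Its log2 fold change was 1.57 with total counts (adjusted p = 0.221, edgeR). DESeq2 called inaD, at 3.72 (adjusted p = 1.9e-06), beside 7.56% of tested genes in this direction. The opsin gene Rh6 was counted 3, 1 and 132 times against 118, 48 and 73 times. The other markers had at most 4 counts in any library.

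emp was by far the most abundant member, with 6156, 17240 and 11595 counts in the control replicates and 21775, 26098 and 23980 in the Poxn replicates. On the CPM scale the libraries labelled control ran from 636 to 3282 and enclosed the narrow range of those labelled Poxn, 785 to 919. The log2 fold change was 1.19 (SE 0.73, adjusted p = 0.302, edgeR) and turned to -0.65 with total counts (adjusted p = 0.365, edgeR). In that fit the median of all tested genes was -1.39, and relative to it emp stood at 0.75. The sign with total counts thus depended on whether the shift of all genes was taken off. Without control replicate 2, the library with the highest CPM of emp, the log2 fold change was 0.57 (adjusted p = 0.534, edgeR).

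pes and crq, the members known from uptake of bacteria and of dying cells, had higher levels in the libraries labelled Poxn without passing the test. pes (peste), needed in cultured fly cells for uptake of mycobacteria, was counted 18, 43 and 91 times in the control replicates and 322, 476 and 387 times in the Poxn replicates, or 6.28 ± 1.68 CPM against 14.1 ± 2.21 CPM (SD, n = 3 each). Its log2 fold change was -1.17 (SE 0.35, adjusted p = 0.0649, edgeR), with an adjusted p of 0.0278 in DESeq2 at a fold under the 4-fold threshold. crq (croquemort), the receptor of blood cells for apoptotic corpses, was counted 228, 227 and 697 times against 2434, 3478 and 3043 times, or 71.7, 43.2 and 38.2 CPM against 87.7, 116 and 117 CPM.

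For crq the log2 fold change was -1.07 (SE 0.38, adjusted p = 0.0977, edgeR). The libraries of neither gene overlapped between genotypes, and with Snmp1 these were the 3 of 7 members for which all libraries labelled Poxn lay above, beside 22.5% of all tested genes. With offsets for transcript length the log2 fold changes shrank to -0.54 for pes (adjusted p = 0.281) and -0.33 for crq (adjusted p = 0.647). With total counts ninaD and santa-maria were also separated in this direction, which made 5 of 7 members beside 57.8% of all tested genes.

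Blood cell markers were examined beside crq, as were other engulfment genes. The 6 hemocyte genes (Hml, He, NimC1, eater, Pxn and Sr-CI) summed to 25.3 to 68.7 CPM in the libraries labelled control and to 15.4 to 27.0 CPM in those labelled Poxn. Of these genes 5 were tested and 0 were called by edgeR or DESeq2. Pxn, 1 of the 5, had an unadjusted p under 0.05, higher in the libraries labelled control, beside 17.8% of tested genes (edgeR). He, one of the defining markers, had at most 7 counts. Of the 13 engulfment genes listed, 12 were found in the files and all 12 were tested with 0 calls by edgeR or DESeq2 and a median log2 fold change of -0.29. At an unadjusted p under 0.05, drpr (Draper), the engulfment receptor of glia, was higher in the libraries labelled Poxn (24.1 ± 8.92 against 45.7 ± 2.89 CPM, log2 fold change -0.92, adjusted p = 0.129, edgeR) and the GTPase gene Rac2 in those labelled control (92.6 ± 28.5 against 47.8 ± 9.46 CPM, 0.95, adjusted p = 0.117). The direction of Rac2 turned to -0.58 with total counts, in a fit where the median of all tested genes was -1.39. Of all tested genes, 14.1% reached an unadjusted p under 0.05 in the Poxn direction and 17.8% in the control direction.

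**Figure D4:**
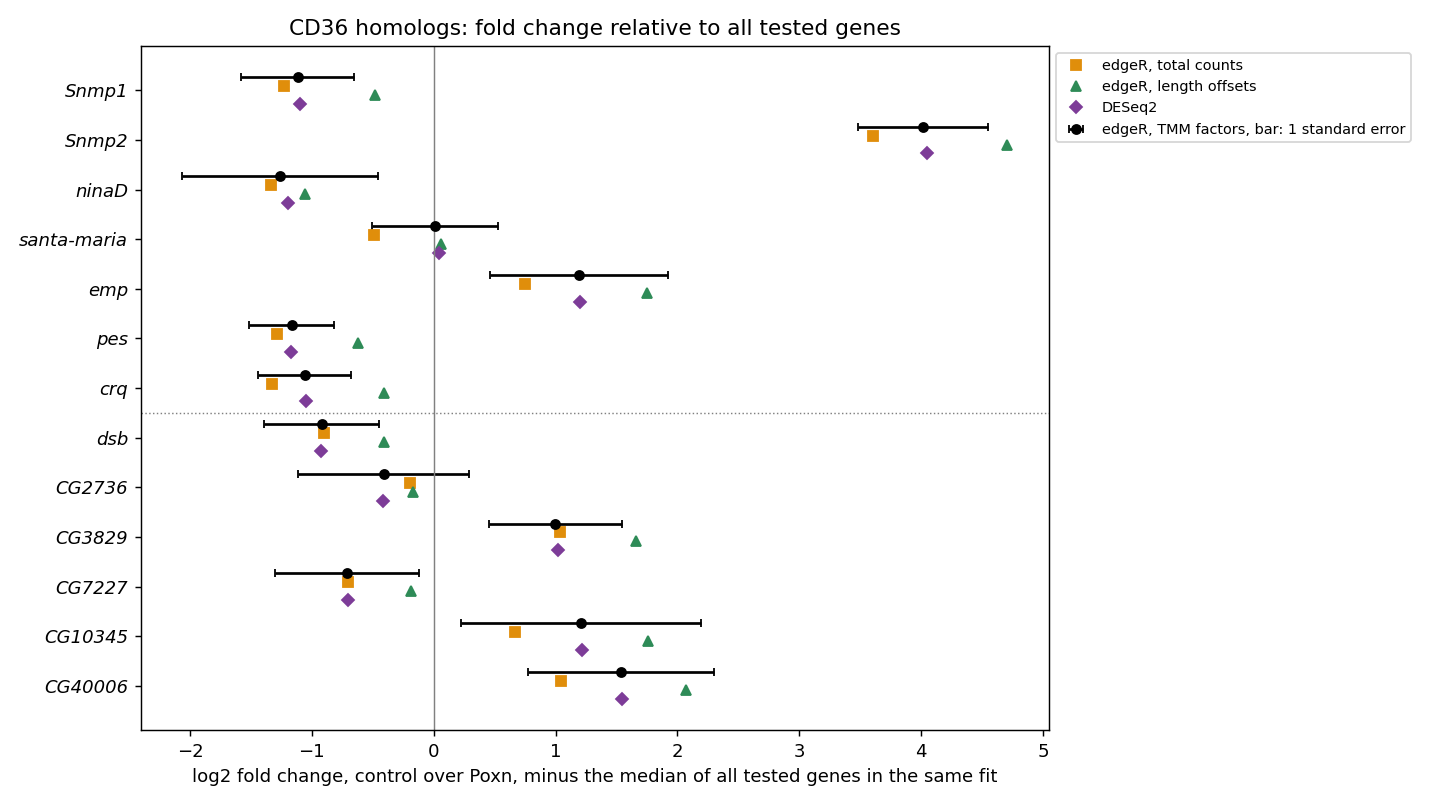
Log2 fold change (control over Poxn) of the 7 members, above the dotted line, and the 6 other tested CD36 homologs, below it, each minus the median of all tested genes in the same fit, for 4 fits, with bars of 1 standard error for edgeR with TMM factors. Snmp2 stands at 3.61 with total counts and 4.71 with length offsets, and no other homolog reaches these values.

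The family has further homologs in the fly, and these were counted as well. Of the 14 homologs in all, 13 had counts and were tested, and CG31741 had 0 counts in all 6 libraries, which allows up to 3 counts per library, or 0.0998 to 0.943 CPM, by counting error alone. Among the 6 tested homologs outside the member list, 0 were called by edgeR or DESeq2, 0 had an unadjusted p under 0.05 in edgeR, and with TMM factors only CG7227 had non-overlapping libraries (Poxn above in 22.5% of tested genes), at 1, 2 and 5 counts against 19, 13 and 11. With total counts dsb, CG2736 and CG7227, 3 of the 6, were separated in this direction, beside 57.8% of tested genes. dsb (debris buster), known from clearance of the airways, was counted 27, 164 and 319 times in the control replicates and 1067, 1317 and 708 times in the Poxn replicates, with a log2 fold change of -0.93 (adjusted p = 0.217, edgeR). CG10345 and CG40006 had log2 fold changes of 1.20 and 1.53 (adjusted p = 0.437 and 0.205, edgeR), which turned to -0.73 and -0.35 with total counts. Relative to the median of all tested genes in that fit, they stood at 0.67 and 1.04. The log2 fold changes were 0.12 and 0.54 without control replicate 2, and 1.75 and 2.06 without control replicate 3 (adjusted p = 0.0758 and 0.0353, edgeR). CG10345 shares 169 nt of exon with CG14892, which had 69588 counts in control replicate 2. In that library CG10345 was highest on the CPM scale, at 9126 CPM, but not in counts, with 47944 against 48048, 50907 and 62730 in the Poxn replicates.

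Levels can be ranked between genes only per length, here as CPM per kilobase of exon. In the libraries labelled control the order of the members was emp (554 ± 376), Snmp2 (37.3 ± 24.4), crq (17.9 ± 6.34), santa-maria (10.8 ± 8.39), Snmp1 (8.70 ± 4.66), pes (1.63 ± 0.438) and ninaD (0.237 ± 0.268; SD, n = 3 each). In the libraries labelled Poxn it was emp (243 ± 19.2), crq (37.5 ± 5.77), Snmp1 (18.9 ± 4.96), santa-maria (10.7 ± 1.12), pes (3.66 ± 0.574), Snmp2 (2.31 ± 0.373) and ninaD (0.479 ± 0.182). Among all 14 homologs Snmp2 thus ranked at place 4 under the control label and at place 11 under the Poxn label. Under the control label most neighbours in the order overlapped in their libraries, the exceptions being pes above ninaD and CG7227 above the undetected CG31741, whereas under the Poxn label only dsb with CG2736 and CG2736 with CG3829 overlapped.

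emp, CG10345 and CG40006 together made up 85.7% to 98.8% of the summed family level per kilobase in every library. Snmp2 made up 2.76%, 0.432% and 4.39% of it in the control replicates and 0.231%, 0.230% and 0.132% in the Poxn replicates. This share does not depend on a scaling factor, and the groups did not overlap, with control replicate 2 nearest to the Poxn replicates. It was drawn from the same counts as the call of Snmp2 and is not a separate result. How many other genes would be separated on such a share was not tested. The share also moves with the abundant homologs, of which CG10345 ran from 614 to 9126 CPM in the control replicates. The share of Snmp1 did overlap, at 0.558%, 0.0763% and 1.63% against 1.48%, 1.43% and 1.73%.

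**Figure D5:**
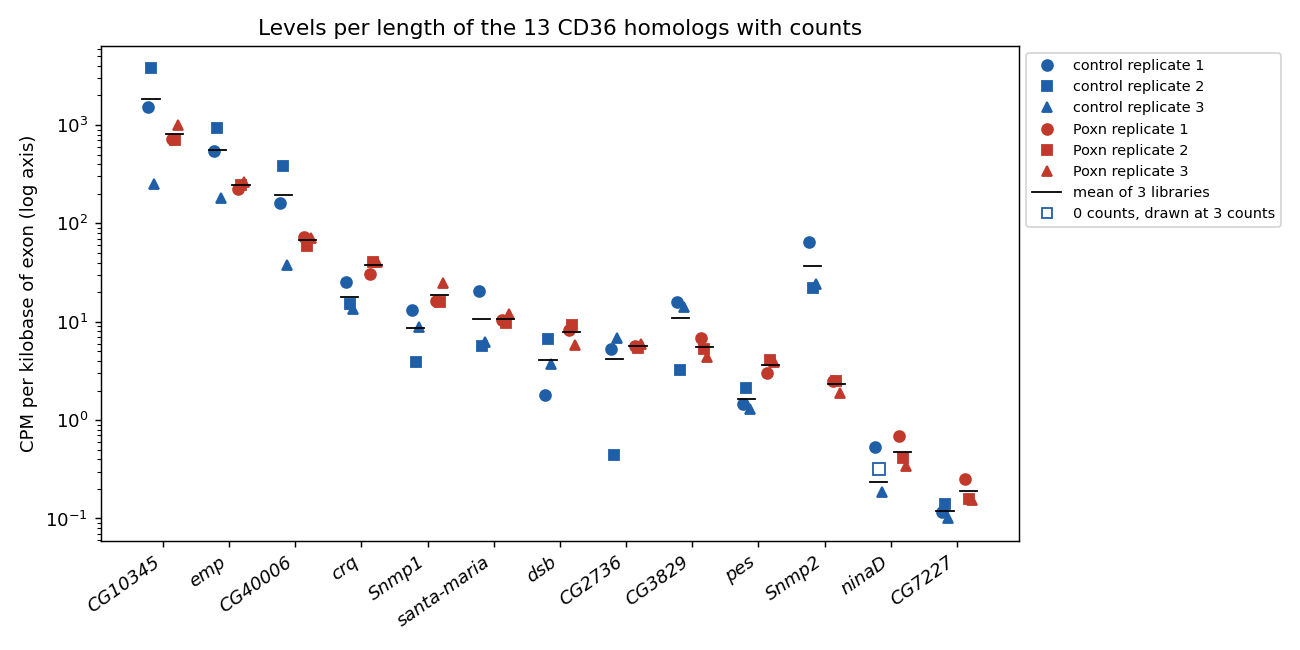
Levels per length of the 13 CD36 homologs with counts, as CPM per kilobase of exon on a log axis, ordered by their mean in the libraries labelled Poxn, with points for libraries and bars for means of 3. CG10345, emp and CG40006 are highest under both labels, and Snmp2 has a mean of 37.3 under the control label and of 2.31 under the Poxn label.

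Some homologs are neighbours on the chromosome. CG2736, emp and CG3829 lie side by side on 2R, with 1114 nt between CG2736 and emp and 27 nt of overlap between emp and CG3829, while pes and CG7227 are 203 nt apart and ninaD and CG31741 are 647 nt apart on 2L. The neighbours of emp did not share its level: CG3829 had 0.0286, 0.00344 and 0.0776 times the counts per kilobase of emp in the control replicates and 0.0309, 0.0215 and 0.0167 times in the Poxn replicates, which overlapped. CG3829 had a log2 fold change of 0.99 (adjusted p = 0.251, edgeR), which turned to -0.36 with total counts. Relative to the median of all tested genes in that fit, CG3829 stood at 1.04. CG2736 had a log2 fold change of -0.42 (adjusted p = 0.720, edgeR).

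Lipid carriers were the remaining group with a tie to CD36 proteins. Of 7 genes for lipoproteins, their receptors and sterol transport, 6 were tested and 0 were called by edgeR, with a median log2 fold change of 0.09. LpR1, which encodes a lipophorin receptor, was counted 12, 34 and 120 times in the control replicates and 759, 1088 and 386 times in the Poxn replicates, or 5.61 ± 1.59 CPM against 26.1 ± 10.7 CPM (SD, n = 3 each). Its log2 fold change was -2.19 (adjusted p = 0.0321, edgeR), more than 4-fold but short of the adjusted p required. DESeq2 called it, at -2.13 (adjusted p = 0.000364), beside 0.763% of tested genes in this direction. Class C scavenger receptors, a separate family, had 1 tested gene of 4, Sr-CI, at 8.44 ± 4.40 CPM against 6.02 ± 2.03 CPM, and the other genes had at most 3 counts in any library.

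The genes whose levels ran most closely with each member over the 6 libraries were found by Pearson's r of log2 CPM, as a description without a test, since genotype, depth and library makeup are shared by all genes. For Snmp2 these were exu (0.998), CG18536 (0.994) and CG9399 (0.993), and 706 tested genes had an r above 0.9 with it. For Snmp1 they were Cyp12e1 (0.992), Ugt317A1 (0.988) and CG32533 (0.985), with 273 genes above 0.9. The nearest gene was Phb2 for ninaD (0.990), insc for santa-maria (0.992), asRNA:CR44021 for emp (0.997), aralar1 for pes (0.996) and Cds for crq (0.988).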

How the data were processed

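Per the labels and the study's methods, paired-end reads were trimmed (Trim Galore 0.4.0) and aligned (STAR 2.4.2a) to a FlyBase release 6 genome, and the authors deposited raw counts per gene for each library, with HTSeq named among the tools and no normalization. Lines naming no gene (no feature, 47.9% to 58.6% of each library) were left out. A deposited table of the authors' own DESeq2 comparison (fold changes, p-values) and its 6 per-library columns were not used.

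Counts were tested with edgeR 4.0.16 in R 4.3.3 (quasi-likelihood test, normalization by TMM, a filterByExpr minimum count of 10, prior count 0.125, Benjamini-Hochberg adjustment over 8973 genes), with the criterion of the study, more than 4-fold and adjusted p under 0.01. The standard error given is the size of the fold change (log2) over the square root of F. DESeq2 1.42.0, limma voom (limma 3.58.1), RLE factors, total counts, other filters, transcript length offsets, a replicate block and leaving out each library were alternatives. The within-library ratios and the folds relative to the median were chosen after seeing the data. Effective library sizes ran from 3180073 to 30066751 counts, lowest in control replicate 1, and intervals or floors cover counting error only. Ensembl annotation of release 6 gave symbols, positions and lengths.

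The members and lists were chosen with earlier results of these data known. Named are all CD36 homologs, genes of the fixed lists and markers, Poxn, the overlapping genes, and the 3 nearest genes by correlation for Snmp1 and Snmp2, 1 for the other members.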

Additional observations from a re-analysis of the deposited data

How the results depend on the processing

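Of the 7 members, Snmp2 was the only one called, and the number called fell from 1 to 0 with total counts, with length offsets and without Poxn replicate 1, 2 or 3, fits in which 3, 7 and 7 genes in all were called in the control direction. Its log2 fold change was 2.21 with total counts and 4.79 with length offsets, between 3.32 and 4.29 when 1 library was left out, and 4.11 in DESeq2 (adjusted p = 1.81e-11). The number of members called was between 0 and 1 over the libraries left out. Of the other homologs 0 were called under every alternative run, and of the context lists 4 were called by DESeq2 (LpR1, Or47b, Pdh and rdhB) and 1, LpR1, at an adjusted p under 0.05 without a fold threshold in edgeR. The share of all tested genes that passed this looser threshold is not given here, so the LpR1 result under it cannot be weighed. At more than 4-fold and adjusted p under 0.01, DESeq2 called 7.56% of all tested genes in the control direction, that of Or47b, Pdh and rdhB. It called 0.763% in the Poxn direction, that of LpR1.

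The direction turned with total counts for santa-maria (-1.88), emp (-0.65), CG3829 (-0.36), CG10345 (-0.73), CG40006 (-0.35), pinta (-0.19) and Rac2 (-0.58). In that fit the median of all tested genes was -1.39. Relative to it, santa-maria stood at -0.49, emp at 0.75, CG3829 at 1.04, CG10345 at 0.67 and CG40006 at 1.04. santa-maria, at 0.0035 in the main comparison, also turned in voom (-0.032), without a filter (-0.18) and on leaving out libraries (-0.86 to 0.33). CG2736 turned without control replicate 2, with a range of -1.02 to 0.10. The cause was not tested.

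Correlations of deviations from the genotype mean were 0.12, 0.14 and -0.07 between replicates of the same number. Between replicates of different numbers they ran from -0.23 to 0.11. With 3 libraries per genotype these values cannot decide whether the replicate numbers pair the samples. With the replicate number as a block Snmp2 was at 3.84 and santa-maria at -0.27, and with the block and length offsets Snmp2 was at 4.50, santa-maria at -0.19 and CG7227 at 0.057. The block gave 104 and 14 calls over all genes in the control and Poxn directions, compared with 54 and 5 without it. Precision was limited by 3 libraries per genotype and did not follow depth alone: the standard error was 0.80 for ninaD, with few counts, and 0.99 for the abundant CG10345.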
